A study of Mus musculus with 18 samples.

Results

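Intergenic deserts are long stretches of chromosome that hold no annotated gene. Here a desert was an interval of 500 kb or more on the 19 autosomes that overlapped no gene of any biotype in the RefSeq annotation of GRCm38. Windows of 1 kb with 0 reads in all 18 tracks were left out, and so were intervals that lost more windows in this way than they kept. This gave 176 deserts among 33506 gene-free autosomal intervals. Together they covered 122 Mb, and their 119954 kept windows made up 5.10% of the 2351479 kept autosomal windows.

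The cells were mouse embryonic stem cells of the line E14, which are pluripotent, kept in 2i/LIF medium, in which inhibitors of GSK3 and MEK and the cytokine LIF hold them undifferentiated. The medium of every group also carried light, medium or heavy forms of arginine and lysine. Chromatin immunoprecipitation and sequencing (ChIP-seq) was done for H3K27me1, H3K27me2, H3K27me3, H3K36me2 and H3K36me3 in untreated cells without a spike-in, and in a quantitative form for H3K27me3 and H3K36me2 after 7 days of DMSO or of 10 µM EPZ-6438, which blocks EZH2. In the quantitative libraries, chromatin of Drosophila S2 cells made up 0.05% of the total. Each of the 9 groups held 2 libraries of 1 cell line. The labels do not say that duplicates came from separate cultures, so p-values measure the spread between these libraries, which may be technical.

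The polycomb complex PRC2 adds methyl groups to H3K27 one at a time through its catalytic subunit EZH2 or EZH1. H3K27me3 marks repressed developmental genes in stem cells, while H3K27me2 and H3K27me1 are spread more widely. H3K36me2 is laid down over broad intergenic and genic territory by NSD enzymes, and H3K36me3 by SETD2 over the bodies of transcribed genes. Both H3K36 marks hinder PRC2 on the same histone tail. Gene deserts often surround genes for neural adhesion proteins and for developmental regulators.

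Desert lengths ran from 500.1 to 1468 kb with a median of 640.2 kb, and 12 deserts reached 1 Mb. The gene at a desert's edge was a pseudogene at 160 of 352 edges, a long non-coding RNA gene (lncRNA) at 94 and a protein-coding gene at 43. The median distance from an edge to the nearest protein-coding gene was 513 kb. Deserts were named by these nearest coding genes. The 176 deserts lay between 141 pairs of coding neighbours. In 27 of these pairs, several deserts were separated only by non-coding genes or pseudogenes. They held 62 deserts, and the 4 deserts between Lrrc4c and Iftap on chromosome 2 were the most for 1 pair. Such deserts are neighbours on 1 stretch of chromosome and not independent of each other. Deserts took 7.82% of chromosome 3, 7.80% of chromosome 1 and 7.73% of chromosome 14, and 1.25% of chromosome 7.

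Where a gene ends a desert with its start, the bases upstream of that start are desert sequence. The 250 bases before the start lay wholly inside a desert for 33 genes of the RefSeq promoter table (GRCm38.p6), 5 of them protein-coding. The 5 coding stretches and the lncRNA stretch that ends the desert between Cdh6 and Cdh9 are shown here, because starts with much and with little H3K27me3 at a desert's edge are both among them. They read 5′ to 3′ on the strand of the gene, with each CG in capitals. Epha3 (ephrin receptor, chr16:63864176-63864425, minus strand) and Cntnap2 (neuronal adhesion protein, chr6:45059811-45060060, plus) are the CG-rich ones. Cox7c (subunit of cytochrome c oxidase, chr13:86046796-86047045, minus), Isx (intestine-specific homeobox factor, chr8:74872924-74873173, plus), Zfp352 (zinc finger protein, chr4:90218570-90218819, plus) and the lncRNA gene 4930557F08Rik (chr15:15777864-15778113, plus) follow.
Epha3: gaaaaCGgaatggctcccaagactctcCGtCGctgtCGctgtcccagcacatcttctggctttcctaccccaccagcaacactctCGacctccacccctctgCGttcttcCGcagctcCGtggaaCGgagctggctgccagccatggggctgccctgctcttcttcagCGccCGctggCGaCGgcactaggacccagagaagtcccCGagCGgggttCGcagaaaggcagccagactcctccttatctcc
Cntnap2: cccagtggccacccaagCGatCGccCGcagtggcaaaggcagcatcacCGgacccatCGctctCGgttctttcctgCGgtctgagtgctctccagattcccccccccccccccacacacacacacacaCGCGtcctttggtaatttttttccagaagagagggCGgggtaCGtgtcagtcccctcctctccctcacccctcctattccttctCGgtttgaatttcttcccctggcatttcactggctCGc
Cox7c: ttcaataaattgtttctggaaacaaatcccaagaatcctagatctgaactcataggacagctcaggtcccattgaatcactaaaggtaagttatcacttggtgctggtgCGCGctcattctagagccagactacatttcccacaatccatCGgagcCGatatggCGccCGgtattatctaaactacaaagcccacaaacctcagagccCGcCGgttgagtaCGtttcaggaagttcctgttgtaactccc
Isx: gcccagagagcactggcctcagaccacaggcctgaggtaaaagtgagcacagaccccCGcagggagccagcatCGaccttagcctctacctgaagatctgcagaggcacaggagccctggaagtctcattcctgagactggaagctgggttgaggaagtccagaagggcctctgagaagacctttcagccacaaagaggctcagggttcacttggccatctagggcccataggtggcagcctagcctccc
Zfp352: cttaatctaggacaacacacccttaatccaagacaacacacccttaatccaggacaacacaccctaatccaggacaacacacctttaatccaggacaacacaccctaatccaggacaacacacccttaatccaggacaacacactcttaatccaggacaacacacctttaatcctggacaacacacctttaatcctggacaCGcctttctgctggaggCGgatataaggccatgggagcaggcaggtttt
4930557F08Rik: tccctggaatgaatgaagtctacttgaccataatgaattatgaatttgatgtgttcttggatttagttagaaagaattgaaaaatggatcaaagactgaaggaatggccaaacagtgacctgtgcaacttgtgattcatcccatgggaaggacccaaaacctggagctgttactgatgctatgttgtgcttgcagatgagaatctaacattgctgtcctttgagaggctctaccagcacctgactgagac
The CG count, the same on both strands and searched with no other motif, was 16 for Epha3, 13 for Cntnap2, 9 for Cox7c, 2 for Isx, 2 for Zfp352 and 0 for 4930557F08Rik. CG was present in 25 of the 33 stretches (75.8%) and in 92.1% of all 32851 stretches of that length in the table. The median count was 9 for the 5 coding stretches and 10 for all 21262 coding ones, and 1 for the other 28 at desert edges.

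Untreated H3K27me3 over the 2 windows at each of these starts is given as the mean reads per window divided by the mean over all kept autosomal windows of the same library, a level called times the autosome mean from here on. At Epha3 it was 4.68 and 4.88 in the 2 libraries, from 132 and 115 reads. At Cntnap2 it was 3.94 and 4.63, from 111 and 109 reads, and at Isx 3.97 and 2.93. At Cox7c it was 0.071 and 0.042, from 2 and 1 reads, although that stretch holds 9 CG. The levels were 0.106 and 0.085 at Zfp352, and 0.177 and 0.170 at 4930557F08Rik. The mean of both libraries was above 2 times the autosome mean at 3 of the 5 coding starts and at 0 of the other 28, where the highest mean was 1.87. Over all autosomal starts of the table, 27.6% of 20084 coding ones and 34.6% of 11312 others were above that level. The difference between coding and other starts at desert edges was not tested. Isx reached that level with only 2 CG, and its windows also held H3K36me2 at 2.50 times the autosome mean, against 0.127 at Cntnap2 and 0.583 at Epha3. After the inhibitor the Epha3 windows held 3 and 5 H3K27me3 reads, those of Cntnap2 4 and 4, and those of Isx 0 and 6, too few to compare.

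The first comparison asked how far each mark in deserts lay from its own autosome mean in untreated cells. All 5 marks were below the autosome mean, H3K36me3 the most and H3K27me1 the least. H3K27me1 stood at 0.644 and 0.695 times the autosome mean in its 2 libraries, H3K27me2 at 0.536 and 0.582, and H3K27me3 at 0.290 and 0.353. H3K36me2 stood at 0.211 and 0.264, and H3K36me3 at 0.179 and 0.149. The libraries of no 2 marks overlapped, and those of H3K27me3 and H3K36me2 came nearest to each other. On the log2 scale the difference from the autosome mean was smallest in H3K27me1 (-0.58 ± 0.08, SD, n = 2 here and for the others) and H3K27me2 (-0.84 ± 0.08). It was -1.65 ± 0.20 in H3K27me3, -2.08 ± 0.23 in H3K36me2 and -2.61 ± 0.18 in H3K36me3. The marks differed by more than their replicates in an exact test over all ways of pairing the 10 libraries (p = 0.00106, the smallest it can give). Each level is relative to the mean of its own library, and no input library was used. How far the mappability of deserts or the enrichment reached by each immunoprecipitation enters the levels and their order was not tested. Deserts held 3.42% of the H3K27me1 reads, 2.85% of H3K27me2, 1.64% of H3K27me3, 1.21% of H3K36me2 and 0.837% of H3K36me3.

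Gene-free sequence outside deserts was the closest reference. Against gene-free intervals under 500 kb, the log2 difference of deserts was -0.40 ± 0.02 in H3K27me1 and -0.72 ± 0.06 in H3K27me2 (SD, n = 2). It was -1.52 ± 0.17 in H3K27me3, -1.88 ± 0.19 in H3K36me2 and -1.70 ± 0.14 in H3K36me3 (exact pairing test over the 5 marks, p = 0.00423). In this reference H3K36me2, not H3K36me3, was the mark furthest down, but the interval of 1 SD of each covers part of the other. The levels followed the length of the gene-free interval. H3K36me2 was 1.56 times the autosome mean in intervals under 10 kb, 1.27 at 10 to 50 kb, 1.01 at 50 to 100 kb, 0.531 at 100 to 500 kb and 0.237 in deserts. H3K27me3 stayed above the autosome mean up to 100 kb, at 1.06 in intervals of 50 to 100 kb, and then stood at 0.696 at 100 to 500 kb and 0.321 in deserts. H3K27me1 had the shallowest decline, from 1.21 under 10 kb to 0.780 at 100 to 500 kb and 0.670 in deserts. Genes of 200 kb or more, which are as long as many gene-free intervals, held H3K27me3 at 1.00 and H3K36me2 at 0.869 times the autosome mean. No step marked the 500 kb threshold. The median over the 51 intervals of 450 to 500 kb was 0.311 for H3K27me3 and 0.196 for H3K36me2, and over the 38 deserts of 500 to 550 kb it was 0.312 and 0.217.

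**Figure D1:**
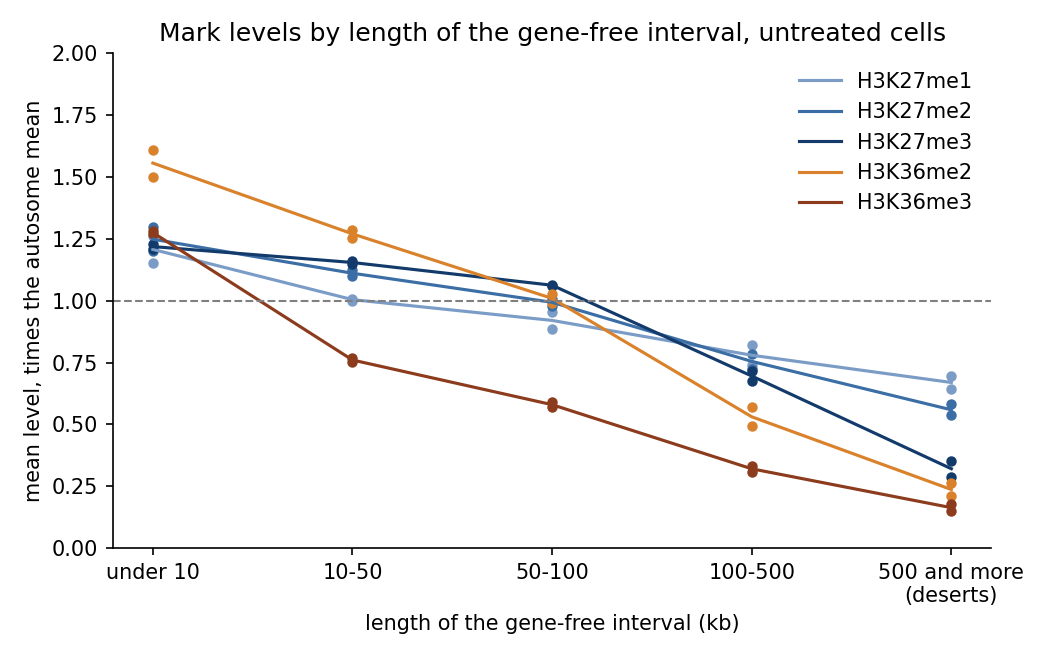
Mean level of 5 marks in untreated cells (vertical axis, times the autosome mean) by length of the gene-free interval in kb (horizontal axis). Points are the 2 libraries of a mark and lines their mean. All 5 lines are lowest in deserts, where H3K36me2 stands at 0.237 and H3K27me1 at 0.670.

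Levels varied less with the distance from a desert's edge than with interval length. In the 50 kb outside deserts H3K27me1 was at 0.725, H3K27me2 at 0.615, H3K27me3 at 0.407, H3K36me2 at 0.320 and H3K36me3 at 0.276, so the surroundings were themselves low. In the first 10 kb inside, H3K27me3 was 0.384 ± 0.042, H3K36me2 0.310 ± 0.042 and H3K36me3 0.213 ± 0.021 (SD, n = 2). At 300 to 400 kb from the nearest edge, where 109 deserts contributed, these 3 marks were at 0.296 ± 0.050, 0.199 ± 0.033 and 0.142 ± 0.021. H3K27me1 moved from 0.691 ± 0.043 to 0.638 ± 0.029, and H3K27me2 from 0.602 ± 0.034 to 0.526 ± 0.032. Each mark was thus lower at 300 to 400 kb than at the edge, by more than its SD at either place, but only the longer deserts reach that distance. At 250 to 300 kb, where 175 deserts contributed, H3K27me1 was 0.665 ± 0.035, within 1 SD of its edge level. Beyond 400 kb, where only 42 deserts reached, H3K27me3 was 0.237 ± 0.037 and H3K36me2 0.201 ± 0.032, while H3K27me1, at 0.660 ± 0.028, differed from its edge level by less than the SD at the edge. All distances come from the same 2 libraries of a mark. The SD at 1 distance thus includes any offset between the libraries and does not measure the spread of the change within a library. No test was made of the profile.

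**Figure D2:**
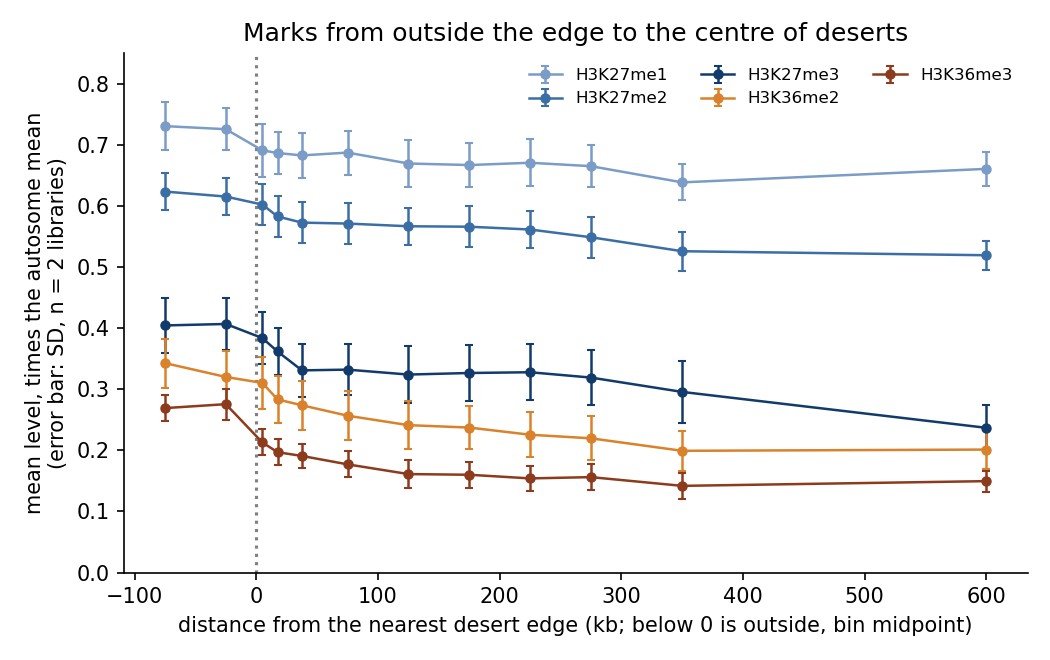
Mean level (vertical axis, times the autosome mean, untreated cells) by distance from the nearest desert edge in kb (horizontal axis, bin midpoints, negative outside the desert). Points are means and bars the SD of 2 libraries. Every mark is lower inside than outside. H3K36me2 passes from 0.310 at the edge to 0.199 at 300 to 400 kb, and H3K36me3 from 0.276 in the 50 kb outside to 0.142 at 300 to 400 kb.

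Single deserts differed widely. Over the 176 deserts, H3K27me1 ran from 0.424 through a median of 0.645 to 1.35 times the autosome mean, and H3K27me2 from 0.361 through 0.531 to 1.30. H3K27me3 ran from 0.120 through 0.276 to 1.22, H3K36me2 from 0.0743 through 0.188 to 1.39, and H3K36me3 from 0.0574 through 0.134 to 0.779. The spread was 3.20-fold for H3K27me1 and 18.7-fold for H3K36me2. H3K27me1 was above the autosome mean in 9 deserts, H3K27me2 in 4, H3K27me3 in 3, H3K36me2 in 1 and H3K36me3 in 0. These values were repeatable, with a Spearman rho between the 2 libraries across deserts from 0.958 to 0.988 in the 5 untreated groups.

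**Figure D3:**
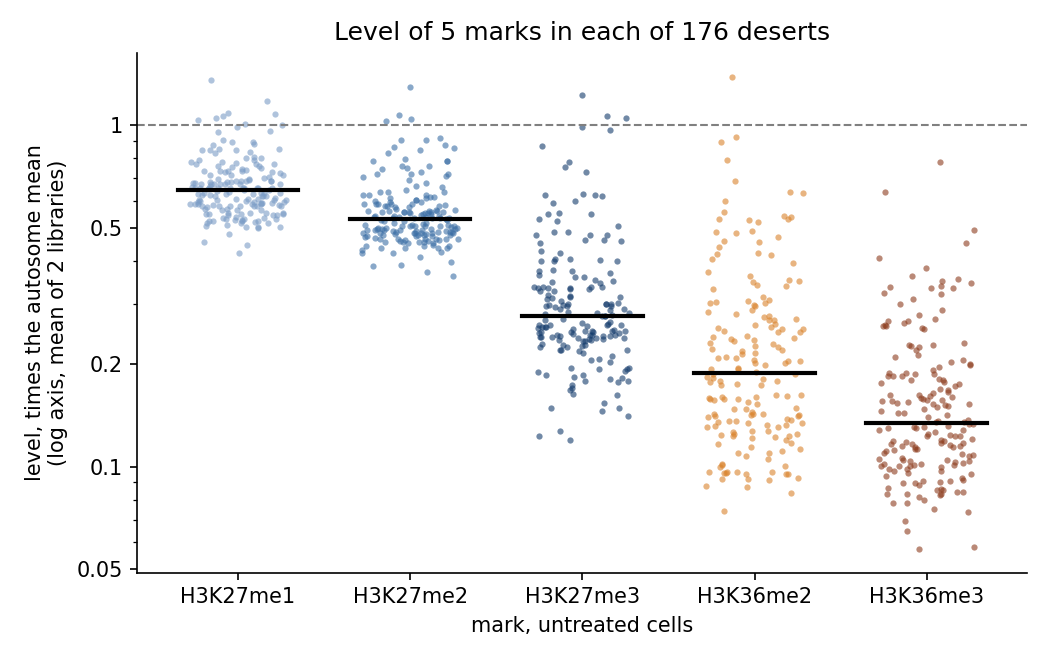
Level of each untreated mark in each of the 176 deserts (points, mean of 2 libraries, log axis, times the autosome mean). Black bars are medians and the dashed line is the autosome mean. The medians step down from 0.645 for H3K27me1 to 0.134 for H3K36me3, and few deserts reach the dashed line.

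The marks grouped in 2 ways across deserts. H3K36me2 and H3K36me3 ranked deserts almost alike (rho = 0.945), and H3K27me1 followed both, with rho = 0.745 to H3K36me2 and 0.841 to H3K36me3. H3K27me2 ranked deserts as H3K27me1 did (rho = 0.840) and as H3K36me2 did (rho = 0.770). H3K27me3 stood apart, with a rho of 0.445 to H3K27me2, 0.048 to H3K27me1, 0.044 to H3K36me2 and -0.024 to H3K36me3. These are descriptions over 176 deserts, which share mappability and base composition between marks, and neighbouring deserts are not independent. Desert length had a weak rho with each of the 5 levels, between -0.191 in H3K27me3 and -0.025 in H3K36me3. Median H3K27me3 was 0.287 at 500 to 600 kb, 0.273 at 600 to 800 kb, 0.247 at 800 to 1000 kb and 0.229 at 1 Mb and more. Median H3K27me2 also fell with each class, from 0.537 to 0.502. The medians of H3K27me1, H3K36me2 and H3K36me3 did not fall steadily.

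Of the 3 longest deserts, that between Epha7 and Map3k7 (chr4:29196279-30664595, 1468 kb) held H3K27me3 at 0.295 and H3K36me2 at 0.137 times the autosome mean. That between Cdh6 and Cdh9 (chr15:14466670-15778113, 1311 kb) held 0.174 and 0.296, and that between Olfm4 and Pcdh17 (chr14:82122227-83405630, 1283 kb) 0.194 and 0.250. Epha7 encodes an ephrin receptor and Cdh6, Cdh9 and Pcdh17 encode cadherin-type adhesion proteins. The longest desert was thus lower in H3K36me2 than the other two and higher in H3K27me3, in each of their libraries.

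Untreated H3K27me3 was highest in the desert between Auts2, a regulator of neural genes, and Castor2 (chr5:132867849-133475080), at 1.16 and 1.29 times the autosome mean in the 2 libraries. Next came the desert between Plekhb2 and Hs6st1, a heparan sulfate sulfotransferase (chr1:35179085-35761601), at 1.11 and 1.02, and the desert between Sall1 and Tox3, both transcription factors (chr8:89667305-90247109), at 1.04 and 1.06. These 3 differed in H3K36me2. The Plekhb2 to Hs6st1 desert was also the highest of all in H3K36me2, at 1.34 and 1.44, and in H3K36me3, at 0.785 and 0.772, while the Auts2 to Castor2 desert had H3K36me2 at 0.453 and 0.611. The lowest H3K27me3 was in the deserts between Cntn5 and Jrkl (chr9:11528403-12194324), at 0.117 and 0.122, between Ankrd7 and Kcnd2 (chr6:19777552-20425162), at 0.109 and 0.138, and between Cox7c and Edil3 (chr13:86046796-86748547), at 0.129 and 0.125. The last of these is the desert that opens with the Cox7c stretch printed above.

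After the Plekhb2 to Hs6st1 desert, H3K36me2 was highest between Igfbp3 and Tns3 (chr11:7886506-8431651), at 0.859 and 0.987, and between Cfap20dc and Fhit (chr14:8926183-9448527), at 0.874 and 0.915. It was lowest between Slitrk1 and Slitrk6 (chr14:109883184-110428156), at 0.069 and 0.079, between Pcdh17 and Diaph3 (chr14:84759085-85478989), at 0.073 and 0.094, and between Igfbp7 and Adgrl3 (chr5:77949024-78473874), at 0.075 and 0.100. Slitrk1 and Slitrk6 encode synaptic adhesion proteins, and Adgrl3 a latrophilin receptor of the synapse. Of the 176 deserts, 60 had a neighbour from the list of adhesion and synaptic surface proteins (cadherin, protocadherin, contactin, Slitrk and similar families), of which 40 genes lay beside deserts. In these 60 the median H3K36me2 was 0.158 and the median H3K27me3 0.253, against 0.188 and 0.276 over all deserts and 0.215 and 0.284 in the 113 deserts next to no listed gene, a difference that was not tested. No desert neighboured a listed chemosensory receptor or pluripotency gene.

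Peaks called by the authors covered little of the deserts. Of desert windows, 5.77% lay in an H3K27me1 peak, 1.92% in an H3K27me2 peak, 1.69% in an H3K27me3 peak and 1.77% in an H3K36me2 peak, with 8.31% in any of the 4 lists. In gene-free intervals under 500 kb the corresponding shares were 15.5%, 25.1%, 22.5%, 27.95% and 44.1%. H3K27me1 was the only list that most deserts carried. Windows in an H3K27me1 peak were missing from 11 deserts, while 110 had none for H3K27me2, 101 none for H3K27me3 and 99 none for H3K36me2. The peaks inside deserts were short, with a median of 4.00 kb for the 1277 H3K27me1 peaks against 7.50 kb for all autosomal ones, and 4.50 kb for the 322 H3K27me3 peaks against 7.00 kb.

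The longest H3K27me3 peak wholly inside a desert lay in the Auts2 to Castor2 desert (chr5:132952001-132984000, 32 kb), with H3K27me3 at 2.26 ± 0.114 and H3K36me2 at 0.823 ± 0.218 times the autosome mean (SD, n = 2). The next were in the desert between Fat4 and Intu (chr3:40387501-40416000, 28.5 kb), at 2.24 ± 0.109, and in the Sall1 to Tox3 desert (chr8:89730501-89754000, 23.5 kb), at 1.90 ± 0.240. The 3 longest H3K36me2 peaks all lay in the Plekhb2 to Hs6st1 desert. In the longest (chr1:35227501-35271000, 43.5 kb) H3K36me2 was 2.09 ± 0.032 and H3K27me3 0.502 ± 0.111, and in the second (chr1:35188501-35225000, 36.5 kb) H3K36me3 reached 2.53 ± 0.094. In the third (chr1:35706501-35731000, 24.5 kb) both H3K36me2, at 1.797 ± 0.065, and H3K27me3, at 1.35 ± 0.049, were above the autosome mean. This single desert thus held H3K36me3-rich stretches with little H3K27me3 and stretches with both H3K36me2 and H3K27me3. Of its windows, 58.0% lay in an H3K36me2 peak, 67.1% in an H3K27me2 peak and 32.2% in an H3K27me3 peak.

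The 3 desert windows with the highest mean over the 5 marks were chosen on these values, so several high marks in 1 window follow from the choice. The 3 highest marks in them were H3K27me1, H3K36me2 and H3K36me3. In the desert between Rbfox1 and Tmem114 (chr16:8176001-8177000, 160 kb from the edge) they stood at 4.20, 3.78 and 6.66 times the autosome mean, with H3K27me3 at 0.404. The other 2 were neighbours in the Plekhb2 to Hs6st1 desert (chr1:35215001-35216000 and chr1:35216001-35217000), inside its 36.5 kb H3K36me2 peak described above. They held H3K36me3 at 5.35 and 6.07 and H3K27me3 at 0.992 and 0.461. No gene of the annotation overlaps these windows, by the rule that defines a desert. None of the 70 autosomal windows above 10 times the mean in all 10 untreated libraries lay in a desert.

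The quantitative libraries asked what 7 days of EZH2 inhibition do to H3K27me3 in deserts. On the spike-in scale, mean H3K27me3 per desert window was 17.95 and 13.5 scaled reads in the DMSO libraries, and 0.0343 and 0.0265 in those of the inhibitor. The groups did not overlap, and the log2 difference of -9.01 amounted to a 516-fold lower level (exact permutation test, two-sided, p = 0.33, the smallest 2 against 2 can give). Over all autosomal windows the difference was -9.06, close to that of deserts. Per desert, limma called 176 of 176 lower at an adjusted p under 0.05, as it did 100% of the 4700 autosomal segments tested, with a median log2 change of -8.99 in deserts and -9.03 in all segments (-3.87 and -5.07 with 1 added to each value in place of 0.001). On this scale the error is that of the 2 library factors (SE 0.337, the same for every segment), so these calls say no more than 2 libraries against 2 do. The deposited factors themselves were 5.94 and 3.37 after DMSO and 0.242 and 0.099 after the inhibitor.

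Few H3K27me3 reads were left after the inhibitor, with a median of 93 and 162 window reads per desert in its 2 libraries against 1808 and 2436 after DMSO. The share of H3K27me3 reads that fell in deserts was 1.70% and 1.75% after DMSO and 1.74% and 1.84% after the inhibitor, with overlapping groups (exact permutation p = 0.667). Relative to gene-free intervals under 500 kb the deserts stood 1.41 and 1.39 lower on the log2 scale after DMSO, and 1.22 and 1.19 lower after the inhibitor. That gap was narrower by 0.19 with no overlap (exact p = 0.33), while relative to genes the difference was -0.02 (exact p = 1). The rank of deserts was less repeatable in what was left. The rho between the 2 inhibitor libraries was 0.641 across deserts, against 0.950 between the DMSO libraries. H3K27me3 after the inhibitor ranked deserts more as untreated H3K27me1 did (rho = 0.720) than as H3K27me3 after DMSO did (rho = 0.493). With untreated H3K36me3 its rho was 0.588, also above the latter. Untreated H3K27me1 and H3K36me3 themselves ranked deserts much alike (rho = 0.841). These are descriptions over 176 deserts.

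On library totals, where each library is scaled to its own autosomal window reads, 55 of 176 deserts were called by limma, 35 higher and 20 lower after the inhibitor. That is fewer than the 49.5% of all 4700 segments called on this scale (27% higher, 22.4% lower), and the median desert change was 0.02. Without the first or the second DMSO library the count of deserts was 32 or 22, beside 25.3% and 26.6% of all segments. Without the first or the second inhibitor library it was 88 in each case, beside 62.5% and 61.5%. A higher share here is a smaller loss than average, since every desert was lower on the spike-in scale. The largest share gain was in the desert between Ythdf3, a reader of methylated RNA, and Cypt12 (chr3:16217038-16817093). Its level went from 0.217 and 0.178 times the autosome mean after DMSO to 0.485 and 0.613 after the inhibitor, from 120 and 271 reads, a log2 change of 1.46 ± 0.15 (SE; limma adjusted p = 0.000612). The Cntn5 to Jrkl desert went from 0.186 and 0.160 to 0.358 and 0.443 (log2 1.196 ± 0.14, adjusted p = 0.000859). The desert between Tbl1xr1 and Naaladl2 (chr3:22526244-23461082) went from 0.274 and 0.223 to 0.482 and 0.439 (log2 0.89 ± 0.13, adjusted p = 0.00188). The first of these 3 was also the highest of all deserts in untreated H3K27me1, at 1.35.

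The largest share losses of H3K27me3 were in the desert between Epha3 and Csnka2ip (chr16:63864176-64477809), which opens with the Epha3 stretch printed above. Its level went from 0.472 and 0.587 after DMSO to 0.306 and 0.340 after the inhibitor, a log2 change of -0.70 ± 0.13 (SE; limma adjusted p = 0.00488). The desert between Tenm3, a teneurin of neural wiring, and Aga (chr8:49549042-50117896) went from 0.351 and 0.402 to 0.262 and 0.215 (log2 -0.66 ± 0.13, adjusted p = 0.00614). The desert between Slc35b3 and Ofcc1 (chr13:38966298-39617670) went from 0.792 and 0.801 to 0.517 and 0.548 (log2 -0.58 ± 0.10, adjusted p = 0.00321). On the spike-in scale, which shifts every desert by nearly the same amount, the log2 changes of these 3 were -9.72, -9.66 and -9.61. Across deserts the change in share was lower where untreated H3K27me3, from other libraries, was higher (rho = -0.740 over 176 deserts). Untreated H3K27me3 ranked deserts almost as H3K27me3 after DMSO did (rho = 0.943), the level from which the change is taken. The untreated level and the change are thus not independent.

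The second quantitative comparison asked what the inhibitor does to H3K36me2. Deserts held a larger share of H3K36me2 reads in both of its libraries. The share was 1.34% and 1.32% after DMSO and 1.77% and 1.73% after the inhibitor, a difference of 0.414 percentage points with no overlap (exact permutation test, two-sided, p = 0.33, the smallest 2 against 2 can give). Relative to the autosome mean the level was 0.263 and 0.259 after DMSO and 0.346 and 0.338 after the inhibitor, 1.31-fold higher. The untreated libraries, made without a spike-in, had shares of 1.08% and 1.34%, a wider gap between duplicates than in either quantitative group. Within a library deserts were also higher against each reference. The log2 difference was 0.43 relative to genes, 0.34 relative to gene-free intervals under 500 kb and 0.18 relative to those of 100 to 500 kb (exact p = 0.33 each). On the spike-in scale the mean per desert window was 93.8 and 60.9 scaled reads in the DMSO libraries and 154 and 84.4 in the others, which overlap (log2 difference 0.59, exact p = 0.667). Over the autosomes the spike-in difference was 0.20.

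Across deserts on the spike-in scale, limma called 0 of 176 in H3K36me2, as it called 0% of 4708 segments. This count did not hold with the replicate number as a block, as given in the closing section. An unadjusted p under 0.05 was found in 1 desert and in 35 of all segments (3 and 38 with limma-voom). All 176 had a fitted change above 0, with a median log2 value of 0.66 against 0.26 over all segments, and an SE of 0.536 for each. The size moved with single libraries. Without the second DMSO library 160 deserts were above 0 with a median of 0.34, and without the first inhibitor library 142 with a median of 0.24. The medians over all segments were then -0.05 and -0.18, below 0. Without the first DMSO library, or the second inhibitor library, all 176 were above 0, with medians of 0.99 and 1.08 (0.58 and 0.71 over all segments). On library totals limma called 144 of 176 deserts, all higher, where 39.7% of all 4708 segments were called, 32.4% higher and 7.35% lower. The median change was 0.46 in deserts and 0.06 over all segments. The groups did not overlap, with the inhibitor above DMSO, in 157 deserts and in 46.4% of all segments. With 1 added to each value in place of 0.001, 95 deserts were called, all higher, beside 40.4% of all segments (26.8% higher). The medians were then 0.043 in deserts and 0.014 over all segments, since so large an added value shrinks the change of low segments most.

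**Figure D4:**
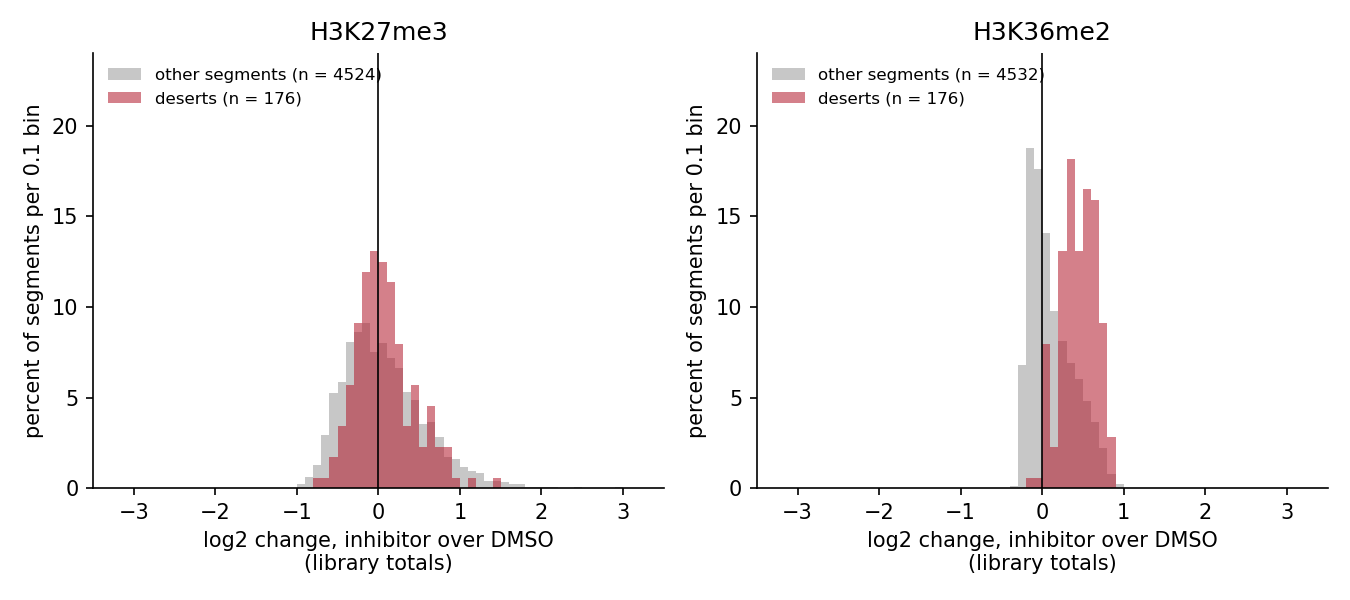
Distribution of the log2 change after the inhibitor on library totals (horizontal axis) as percent of segments per bin of 0.1 (vertical axis), for 176 deserts in red and the other autosomal segments in grey. H3K27me3 changes in deserts centre on 0.02, while H3K36me2 changes in deserts centre on 0.46 and lie to the right of most other segments.

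The largest H3K36me2 share gain was in the Tenm3 to Aga desert, whose level was 0.160 and 0.160 times the autosome mean after DMSO and 0.298 and 0.282 after the inhibitor. That is a log2 change of 0.85 ± 0.05 (SE; limma adjusted p = 0.00159), and the desert is also among the 3 with the largest H3K27me3 loss. The desert between Dthd1 and Nwd2 (chr5:62888319-63561977) went from 0.260 and 0.304 to 0.452 and 0.565 (log2 0.84 ± 0.13, adjusted p = 0.00639). The desert between Trim52 and Slitrk1 (chr14:108093590-108622542) went from 0.139 and 0.131 to 0.235 and 0.249 (log2 0.83 ± 0.06, adjusted p = 0.00159). The groups did not overlap in any of the 3. In the longest desert, between Epha7 and Map3k7, H3K36me2 rose from 0.173 and 0.176 to 0.274 and 0.269 (log2 0.63 ± 0.05, adjusted p = 0.00159). The desert lowest in untreated H3K36me2, between Slitrk1 and Slitrk6, went from 0.124 and 0.122 to 0.186 and 0.195 (log2 0.62 ± 0.05, adjusted p = 0.00162). In the Epha3 to Csnka2ip desert the change was 0.79 ± 0.08 (adjusted p = 0.00225). The Slc35b3 to Ofcc1 desert, also among the 3 with the largest H3K27me3 share loss, gained less H3K36me2 (log2 0.31 ± 0.07, adjusted p = 0.0274). H3K27me3 shares were not called changed in the Dthd1 to Nwd2 desert (log2 0.01 ± 0.18, adjusted p = 0.961). Nor were they in the Trim52 to Slitrk1 desert (log2 -0.14 ± 0.13, adjusted p = 0.394).

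The 3 deserts highest in untreated H3K36me2 did not pass the test. In the Plekhb2 to Hs6st1 desert H3K36me2 went from 1.31 and 1.26 with DMSO to 1.35 and 1.27 with the inhibitor (log2 0.03 ± 0.06, adjusted p = 0.694). The Igfbp3 to Tns3 desert was at 0.848 and 0.833 and then at 0.892 and 0.824 (log2 0.03 ± 0.06, adjusted p = 0.720). The Ythdf3 to Cypt12 desert, with the largest H3K27me3 share gain, was at 0.702 and 0.631 and then at 0.640 and 0.532 (log2 -0.19 ± 0.11, adjusted p = 0.201). In 2 deserts the fitted change was below 0, the last one and that between Cfap20dc and Fhit (log2 -0.02 ± 0.09, adjusted p = 0.839). Over the 176 deserts the H3K36me2 change had a rho of -0.766 with untreated H3K36me3, -0.701 with untreated H3K36me2, -0.638 with untreated H3K27me1 and 0.448 with untreated H3K27me3. The quantitative libraries took no part in the untreated levels, and all values share the mappability of the desert. Untreated H3K36me2 ranked deserts almost as H3K36me2 after DMSO did (rho = 0.977), the level from which the change is taken. The rho of the change with untreated H3K36me2, and with marks that rank deserts alike, is thus not independent of that starting level. The H3K36me2 and H3K27me3 changes, each from its own 4 libraries, had a rho of -0.700. The H3K36me2 gain hardly followed desert length (rho = -0.042), with a median of 0.46 in the 66 deserts of 500 to 600 kb, 0.51 in the 30 of 800 to 1000 kb and 0.33 in the 12 of 1 Mb and more. Of the 60 deserts next to a listed adhesion gene, 52 were called higher, and of the 113 next to no listed gene 89, beside the 144 of all 176 deserts and 32.4% of all segments. The difference between these groups was not tested.

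**Figure D5:**
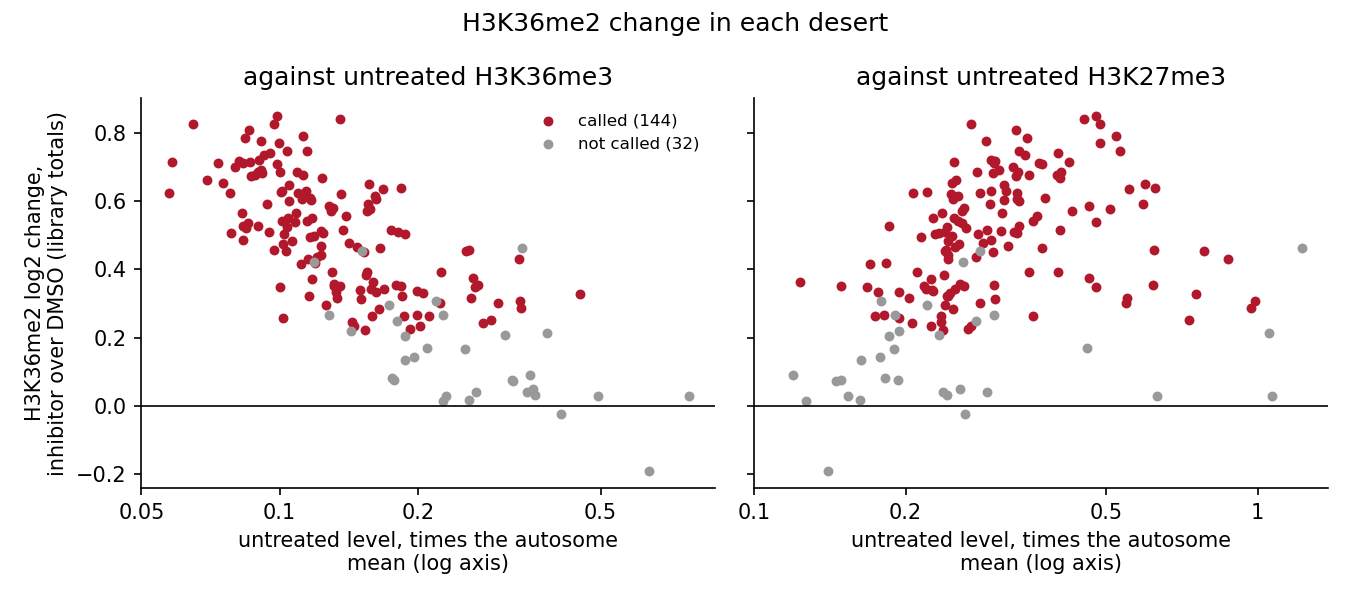
Log2 change of H3K36me2 on library totals in each desert (vertical axis) against the untreated level of H3K36me3 (left) and H3K27me3 (right), in times the autosome mean on log axes. Red points are the 144 deserts called by limma and grey points the other 32. Changes near 0 gather among deserts with more H3K36me3 (rho = -0.766), and the relation to H3K27me3 is weaker (rho = 0.448).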

How the data were processed

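ChIP-seq libraries of E14 cells were taken as deposited log2 tracks of 1 kb windows every 500 bp. Trim Galore 0.4.2, Bowtie2 2.2.6.2 and SICER with builds mm10 and dm3 are named, per the submitters' processing notes, without their settings. The deposited log2 values were returned to the linear scale. In 100% of windows (tolerance 0.02) they were whole reads times 1 factor per library, read as RPM in untreated tracks. In the quantitative tracks the factor was read as the spike-in scaling of the authors, whose derivation is not given in the sources used here. Read as RPM, untreated values sum over autosomal windows to more than the whole library, so a read can count in more than 1 window. Reads given per window, locus or library are thus window counts, which can exceed the number of sequenced reads. Non-overlapping windows were used. The deposited peak lists, 1 per mark for both replicates of H3K27me1, H3K27me2, H3K27me3 and H3K36me2, carry an authors' score per peak, used here only to rank peaks within a list. A window lay in a peak when 500 bp of it did. No input library was used here.

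Genes came from the RefSeq table of GRCm38.p6 (47038 autosomal genes), of which 328 have coordinates in the first 3 Mb of a chromosome, before the sequenced part. The 21 intervals of 500 kb or more that lost more windows than they kept all reached into that part. Each desert was 1 segment, and the rest was cut in tiles of 500 kb (4708 segments). limma 3.58.1 (R 4.3.3, no covariate) was run on log2(mean scaled reads per window + 0.001) for segments with at least 10 window reads in each of the 4 libraries, with Benjamini-Hochberg adjustment over all segments at 0.05. It was run on the spike-in scale and on library totals. A fold change on this scale slightly understates that of segments near 0. Values of 1 per library were compared by exact permutation tests. On simulated library totals, 200 of 200 segments changed 1.25-fold were called for H3K36me2 (4708 segments) and 0 of 200 for H3K27me3 (4701 segments), where 200 of 200 changed 2-fold were called (4700 segments). The simulation took segments from all autosomes and added a log2 SD of 0.05 between libraries to counting noise. Fitted H3K36me2 SEs on library totals were 0.05 in the Epha7 to Map3k7 desert and 0.20 in the Auts2 to Castor2 desert. The simulated shares thus do not give the power in deserts with a wider spread.

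Autosomal window reads were 22.6 M to 66.4 M in untreated libraries, 21.3 M and 27.5 M for H3K27me3 after DMSO, 0.976 M and 1.75 M after the inhibitor, and 49.7 M to 110 M for H3K36me2. Groups came from the labels alone. Named deserts are the 3 longest, the 3 highest and lowest in untreated H3K27me3 and H3K36me2, and the 3 largest called rises and falls, besides the 3 longest H3K27me3 and H3K36me2 peaks and the 3 highest windows. The printed promoters, and deserts named beside results of these, were chosen after their values were seen. Members and gene lists were chosen with earlier results of these data known. Alternatives covered the pseudocount, the read filter, a replicate block, limma-voom, single libraries left out, 10 kb bins, desert length and edges, and peak score. Base composition of whole deserts was not analysed here, and no desert of chromosome 18 is named. The list of developmental factors is not reported here.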

Additional observations from a re-analysis of the deposited data

Results flagged for a closer look

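H3K27me3 after the inhibitor was high, relative to the autosome mean of the same library, in gene-free intervals that the comparisons left out. The 21 intervals of 500 kb or more that had more windows without reads than with them held 692 windows with reads among 45270. After the inhibitor these windows stood at 2.62 times the autosome mean in H3K27me3 (2.53 and 2.72 in the 2 libraries, from 725 and 1395 window reads), against 0.763 after DMSO and 0.590 in untreated cells. Untreated H3K27me1 was 1.76 there, and H3K36me2 was 0.703 after DMSO and 0.479 after the inhibitor. In the deserts analysed, H3K27me3 was 0.338 after DMSO and 0.351 after the inhibitor on the same scale. The autosome mean of H3K27me3 was itself 535-fold lower after the inhibitor than after DMSO on the spike-in scale. A higher H3K27me3 level in the left-out windows is thus a smaller loss than average, not a rise. The part of repeated sequence in these windows was not tested.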

How the results depend on the processing

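Of 114 recomputed values that answer a comparison, 100 held their direction and, where it was compared, their side of the threshold, with counts within 1.5 times. Many of them could not change side. Exact tests of 2 against 2 give no p under 0.33, so only their direction was compared. H3K27me3 calls on the spike-in scale were 100% of segments in every setting. Leaving out windows high in all marks removed 0 desert windows. Levels of single marks moved by over 1 SD in 13 cases, and in each the desert level was still below its reference. Fitted medians have no SD and shrank with a pseudocount of 1. On library totals the desert mean of H3K27me3 changed by 0.053 (exact permutation p = 0.667, n = 2 per group) in place of -9.01. With the upper peaks by score alone, peak cover of deserts was 2.17% for H3K27me1, 0.681% for H3K27me2, 0.652% for H3K27me3 and 0.499% for H3K36me2. For H3K27me3 on library totals, 31.2% of deserts were called (49.5% of all segments), 13.6% (44% of all) with a pseudocount of 1, and 12.5% to 50% (25.3% to 62.5% of all) with single libraries left out, where a lone library is assumed to vary as the others do. With 10 kb bins it was 75% (38.9% of all bins), but only 8 desert bins passed the minimum of 10 reads in each library. That minimum keeps bins with unusually many reads after the inhibitor, so the share says nothing of deserts. For H3K36me2 on library totals, 81.8% of deserts were called (39.7% of all segments), 54.0% (40.4% of all) with a pseudocount of 1, and 27.1% of 11687 desert bins (12.2% of all bins) with 10 kb bins. With the replicate number as a block, H3K36me2 on the spike-in scale was called in 90.9% of deserts, all higher (44.1% of all segments), in place of 0. On library totals it was called in 161 deserts, 160 of them higher (66.2% of all segments). With only 2 pairs, the numbers cannot be shown to pair the samples: the deviations of same-numbered libraries correlated at 0.698 for H3K36me2 and 0.204 for H3K27me3. Peak edges are multiples of 500 bp, so an overlap of 1 bp gives the same windows. Depth limits H3K27me3 after the inhibitor most, where 87.7% and 80.2% of desert windows held no read.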
